A study of Homo sapiens with 18 samples.

Results

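The complement genes examined here are 9: C1QA, C1QB and C1QC, which encode the 3 chains of C1q, CFP, CFD and C3 of the alternative pathway, and the receptors C3AR1, C5AR1 and CR1. They were chosen as the rows of the deposited expression table whose Ensembl gene identifiers map to these 9 symbols, and all 9 had a row among 40184 gene rows. The table covers 18 RNA-seq libraries from 3 human acute myeloid leukaemia (AML) cell lines, with 3 libraries labelled as biological replicates in each of 6 groups. Molm-14 and MV4-11 cells carry an internal tandem duplication of the receptor tyrosine kinase FLT3 (FLT3-ITD). SKNO-1 cells carry the KIT N822K mutation, which activates the receptor tyrosine kinase KIT. Each line was given the solvent DMSO or 500 nM RMC-4550, an allosteric inhibitor of the phosphatase SHP2, for 24 h. SKNO-1 was the line whose medium also held hGM-CSF at 10 ng/mL, with and without the inhibitor. In every comparison of SKNO-1 with another line, the line and hGM-CSF therefore cannot be told apart. Each line is an established culture, and the labels do not say whether the replicates were cultured on separate days, so p-values measure the spread between these libraries.

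Complement is a cascade of plasma and cell-surface proteins that tags targets for uptake and lysis. C1q starts the classical pathway when it binds antibody or other ligands, and factor D, properdin and C3 run the amplifying alternative pathway. Cleavage of C3 and C5 releases peptides that act on myeloid cells through the receptors C3AR1 and C5AR1, while CR1 binds C3b and C4b on targets and helps to inactivate them. Monocytes and macrophages are known sources of C1q, properdin and factor D, and the liver is the main source of C3 in plasma.

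The libraries held 17434810 to 19959917 reads in genes. Mitochondrial genes took 5.07 to 7.02% of reads in 14 libraries and 10.5 to 15.02% in the other 4, which were replicate 2 of Molm-14 with RMC-4550, replicates 1 and 3 of MV4-11 with DMSO, and replicate 1 of MV4-11 with RMC-4550. Tested results for the members that rest on these libraries are also given without them, where the test could then be made. With DMSO, MV4-11 lay between the other lines for 52.0% of 10190 genes with at least 10 reads per 1000000 of the scaled library (CPM) in some line. Of 9261 genes at 10 CPM or more in Molm-14, none was under 1% of that level in MV4-11, against 69 in SKNO-1. RUNX1T1, part of the fusion gene for which SKNO-1 is known, had 286 to 306 reads in the SKNO-1 DMSO libraries and none in the DMSO libraries of the other lines. Of 12 myeloid AML markers 11 had a row, and in each group 9 or 10 of them passed 3 reads in at least 1 library, with summed levels of 2054 to 4204 CPM. Of 6 listed T cell genes, CD3D, CD3E, CD3G and CD2 had at most 3 reads in every library, and the other 2 passed 3 reads in each group. Of 6 listed B cell genes, MS4A1 and CR2 had at most 3 reads in every library. In each group, 3 (Molm-14) or 4 (MV4-11 and SKNO-1) of the B cell genes passed 3 reads in at least 1 library. The T and B lists as a whole were thus not absent. The 8 tissue macrophage markers summed to 1.78 to 3.23 CPM in Molm-14, 1.12 to 2.38 CPM in MV4-11 and 3.18 to 4.33 CPM in SKNO-1.

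Gene positions are from RefSeq on GRCh38.p14. The C1q genes lie side by side on the plus strand of chromosome 1, with C1QA at chr1:22636463-22639678, C1QC at chr1:22643633-22648108 and C1QB at chr1:22653236-22661637. CR1 is at chr1:207496157-207641765 on the plus strand, with the annotated gene AL137789.1 on the other strand. CFD (chr19:859664-863641) and C5AR1 (chr19:47307477-47322066) are on the plus strand, and C3AR1 (chr12:8056844-8066359) is on the minus strand. CFP (chrX:47623282-47630305, minus strand) overlaps AL009172.2, and C3 (chr19:6677704-6720650, minus strand) overlaps AC008760.2 and GPR108, in each case on the same strand. The use of strand in counting is not given in the sources used here, so reads shared with these neighbours, or between CR1 and its paralogue CR1L, cannot be told apart.

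The 4 promoters below belong to genes whose levels the results turn on. CFD was the most abundant member, and C1QA was called with RMC-4550 in SKNO-1, the only line where it was tested. C3AR1 and C5AR1 were each called with RMC-4550 in 2 of 3 lines. Each is the 250 bases before a RefSeq transcription start on the gene's own strand, 5′ to 3′, and capitals mark a motif match on either strand. The windows are chr1:22636213-22636462 for the first start of C1QA, chr19:859414-859663 for CFD, chr12:8066360-8066609 for C3AR1 and chr19:47309611-47309860 for C5AR1, the last lying inside the annotated gene.
C1QA: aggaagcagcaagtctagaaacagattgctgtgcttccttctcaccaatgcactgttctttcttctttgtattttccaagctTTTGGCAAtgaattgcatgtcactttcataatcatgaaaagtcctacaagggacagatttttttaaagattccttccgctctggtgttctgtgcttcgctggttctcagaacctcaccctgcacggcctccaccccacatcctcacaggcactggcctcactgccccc
CFD: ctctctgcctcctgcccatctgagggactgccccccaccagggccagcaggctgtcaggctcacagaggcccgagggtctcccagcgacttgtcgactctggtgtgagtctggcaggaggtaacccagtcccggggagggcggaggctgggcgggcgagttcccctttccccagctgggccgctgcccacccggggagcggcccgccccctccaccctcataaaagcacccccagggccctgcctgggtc
C3AR1: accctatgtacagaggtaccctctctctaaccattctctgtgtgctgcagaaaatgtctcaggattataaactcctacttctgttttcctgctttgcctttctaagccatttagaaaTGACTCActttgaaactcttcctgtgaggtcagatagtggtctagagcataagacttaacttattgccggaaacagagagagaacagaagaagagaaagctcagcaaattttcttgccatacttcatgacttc
C5AR1: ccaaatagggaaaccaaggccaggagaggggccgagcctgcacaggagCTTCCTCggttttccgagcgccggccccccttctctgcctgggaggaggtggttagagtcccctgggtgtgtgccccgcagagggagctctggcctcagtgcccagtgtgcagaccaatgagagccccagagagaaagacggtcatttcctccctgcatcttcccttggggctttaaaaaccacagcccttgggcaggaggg
The motifs searched were C/EBP (TTGCNNAA), AP-1 (TGANTCA) and PU.1 (GAGGAAG). C1QA held a C/EBP match that began 168 bases before the start, C3AR1 an AP-1 match at 133 bases and C5AR1 a PU.1 match at 202 bases, while CFD held none of the 3 motifs. Of the same windows of 35116 promoters, 9.05% held the C/EBP motif, 6.57% AP-1 and 11.2% PU.1. Promoters were matched for 7 of the 9 members. The window of C1QB held a C/EBP match, and those of CFP and CR1 held none of the 3.

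With DMSO, CFD was by far the most abundant member in all 3 lines. Per kilobase of the longest annotated transcript, its mean level was 268 CPM in Molm-14, 313 CPM for MV4-11 and 229 CPM for SKNO-1, where C3, next in order in each line, stood at 1.13, 1.09 and 3.58 CPM per kilobase. After CFD and C3, the order in Molm-14 was C3AR1 (0.862 CPM per kilobase), C5AR1 (0.390), CFP (0.167) and CR1 (0.103), with no overlap between neighbours over the 3 libraries and no read of the C1q genes. In SKNO-1 CFP (2.75 CPM per kilobase) and C3AR1 (1.87) came next, followed by C1QA (0.664) and C5AR1 (0.422), which overlapped. In MV4-11 the ranges of C3 and CFP overlapped, as did those of C5AR1 and C3AR1. CR1, C1QC and C1QB were the lowest in SKNO-1 and MV4-11, each overlapping its neighbour except C1QC in MV4-11, which had no reads with DMSO. The plot of levels per kilobase shows this order.

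**Figure D1:**
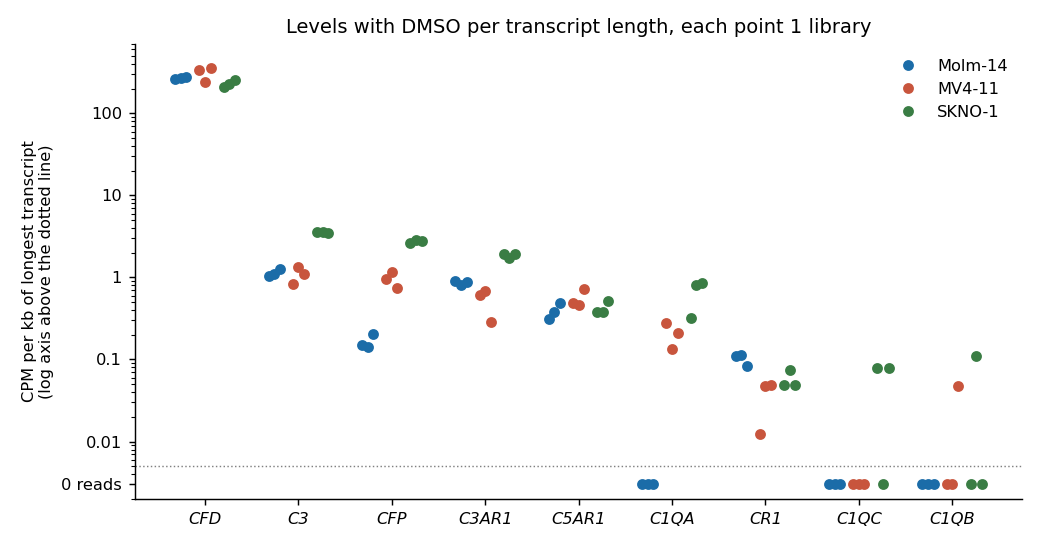
Level of each member with DMSO in CPM per kilobase of its longest transcript (log axis), with 1 point per library and colours for the 3 lines; points under the dotted line had 0 reads. CFD lies above 200 CPM per kilobase in every library and every other member lies below 4.

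Among the members that could be tested with DMSO, the largest difference between lines was at CFP, which encodes properdin, the protein that stabilises the alternative pathway C3 convertase. The Molm-14 DMSO libraries had 0.611, 0.577 and 0.836 CPM, from 11, 10 and 15 reads. MV4-11 had 3.87, 4.65 and 2.99 CPM, and SKNO-1 had 10.6, 11.6 and 11.3 CPM. The 3 lines did not overlap. By limma, CFP was higher by 2.46 on the log2 scale in MV4-11 than in Molm-14 (SE 0.22, adjusted p = 1.2e-07), by 4.01 in SKNO-1 than in Molm-14 (adjusted p = 1.0e-10) and by 1.55 in SKNO-1 than in MV4-11 (adjusted p = 3.5e-05). Without the libraries of high mitochondrial share, the difference of CFP between SKNO-1 and MV4-11 was 1.25 (adjusted p = 1.3e-04), and that between MV4-11 and Molm-14 could not be tested. These 3 comparisons share their DMSO libraries. The lines differed widely at large, so the members' counts are read against the whole table. Of the members tested, 2 of 5 were called between MV4-11 and Molm-14 where 54.2% of all genes were. It was 3 of 4 between SKNO-1 and Molm-14 (65.3% of all genes) and 4 of 5 between SKNO-1 and MV4-11 (42.4%). A member can reach these tests through its higher line alone, as CFP did in both comparisons with Molm-14. The counts and the rank of CFP thus describe the tested members only, and the C1q genes and CR1 were not among them.

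C3, the central component of all pathways, was higher in SKNO-1. Its 3 DMSO libraries had 19.1, 19 and 18.5 CPM, against 5.50, 5.77 and 6.63 CPM in Molm-14 and 4.41, 7.01 and 5.81 CPM in MV4-11. SKNO-1 lay above both other lines without overlap, and those 2 overlapped. The log2 difference of SKNO-1 was 1.66 from Molm-14 (SE 0.16, adjusted p = 9.1e-08) and 1.74 from MV4-11 (adjusted p = 2.1e-07), and 1.42 from MV4-11 without the libraries of high mitochondrial share (adjusted p = 1.9e-07). Between MV4-11 and Molm-14 it was -0.08 (95% interval -0.41 to 0.25), and without those libraries 0.24 (adjusted p = 0.14). The summed level of the hepatocyte markers, mostly SERPINA1, was also highest in SKNO-1, at 32.1 to 42.7 CPM over its 6 libraries against 0.656 to 14.2 CPM in the other lines, and its part in the C3 result was not tested.

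C3AR1, the receptor of the C3a peptide, was highest in SKNO-1 with DMSO, at 4.06, 3.63 and 4.05 CPM. Molm-14 had 1.89, 1.67 and 1.84 CPM and MV4-11 had 1.29, 1.43 and 0.598 CPM. The lines did not overlap, and replicate 3 of MV4-11 was the lowest library. SKNO-1 was higher by 1.11 on the log2 scale than Molm-14 (SE 0.26, adjusted p = 0.0012) and by 1.88 than MV4-11 (adjusted p = 2.5e-05), or by 1.43 than MV4-11 without the libraries of high mitochondrial share (adjusted p = 4.2e-05). MV4-11 was lower than Molm-14 by limma, with a log2 difference of -0.78 (adjusted p = 0.018). Without MV4-11 DMSO replicate 3 that difference was -0.40 (adjusted p = 0.12), without Molm-14 DMSO replicate 1 it was -0.74 (adjusted p = 0.052), and without the 4 libraries of high mitochondrial share it was -0.32 (adjusted p = 0.21), none of which passed the threshold.

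CFD, which encodes the protease factor D that cleaves factor B, differed less. The DMSO libraries had 311, 327 and 329 CPM in Molm-14, 410, 287 and 430 CPM in MV4-11 and 252, 271 and 303 CPM in SKNO-1. MV4-11 spanned the widest range, its lowest library being the one with a low mitochondrial share. SKNO-1 was lower than MV4-11 with a log2 difference of -0.43 (SE 0.14, adjusted p = 0.019), although their ranges overlapped, and without the libraries of high mitochondrial share the difference was -0.07 (adjusted p = 0.65). That call was also lost without MV4-11 DMSO replicate 1 or 3 or SKNO-1 DMSO replicate 1 or 2. Against Molm-14 the log2 difference was 0.20 for MV4-11 (95% interval -0.09 to 0.49) and -0.23 for SKNO-1 (95% interval -0.52 to 0.06), neither called. Without MV4-11 DMSO replicate 2 the former was 0.38 and called (adjusted p = 0.0085), and without the libraries of high mitochondrial share the latter was called at the same size (adjusted p = 0.0081).

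C5AR1, the main receptor of the C5a peptide, was low with DMSO and its ranges overlapped between the 3 lines, at 0.722 to 1.11 CPM in Molm-14, 1.07 to 1.68 CPM in MV4-11 and 0.872 to 1.18 CPM in SKNO-1. The log2 difference of MV4-11 from Molm-14 was 0.50 (95% interval -0.29 to 1.29) and that of SKNO-1 from MV4-11 was -0.39 (95% interval -1.18 to 0.40). CR1 had 17, 17 and 13 reads in the Molm-14 DMSO libraries, 2, 8 and 7 in MV4-11 and 9, 14 and 9 in SKNO-1. In CPM the Molm-14 libraries lay above those of both other lines, the lowest at 0.724 CPM against 0.642 CPM for the highest of SKNO-1. Summed over libraries and scaled to their depth, Molm-14 had 2.85 times the CR1 reads of MV4-11 (95% interval for counting error only, 1.60 to 5.29) and 1.78 times those of SKNO-1 (1.11 to 2.89). CR1 was below the level needed for the test across genes.

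With RMC-4550, CFD and CFP were called higher in all 3 lines and C3AR1 in the FLT3-ITD lines. The change of C3AR1 was not called as different between lines. CR1 fell to 0 reads in Molm-14, and C1QA and C1QC were called higher in SKNO-1, the only line where they were tested. The test across genes took a gene with a deposited value of at least 1 CPM in at least 3 libraries of the line. In Molm-14, 5 of 9 members could be tested and 4 were called higher, against 21.5% of all 14020 genes tested. In MV4-11 it was 4 of 5 tested against 5.85% of 14739, and in SKNO-1 5 of 7 against 10.8% of 14690. No member was called lower, against 25.1% of genes for Molm-14, 8.03% for MV4-11 and 16.2% for SKNO-1. A member can reach the test through the treated group alone, with fewer than 3 DMSO libraries at 1 CPM. So did C1QA, C1QC and C5AR1 in SKNO-1, CFP and C5AR1 in Molm-14 and C3AR1 in MV4-11. These counts therefore describe the tested members only. When MV4-11 was fitted alone, 0 of its 5 tested members were called. Without Molm-14 RMC-4550 replicate 2, the count in Molm-14 was 2. Without MV4-11 DMSO replicate 3 or RMC-4550 replicate 2 or 3 it was 2 in MV4-11, and without any treated SKNO-1 library it was 3 in SKNO-1. The median log2 change of the tested members was 1.10 in Molm-14 (-0.06 over all genes tested), 0.80 in MV4-11 cells (-0.01) and 1.06 for SKNO-1 (-0.05). These medians also rest on members that could enter through the treated group alone. They leave out CR1, which had fewer reads with RMC-4550, so their distance from all genes is not read as a result. In these bulk libraries, more cells of a type and more RNA per cell cannot be told apart.

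**Figure D2:**
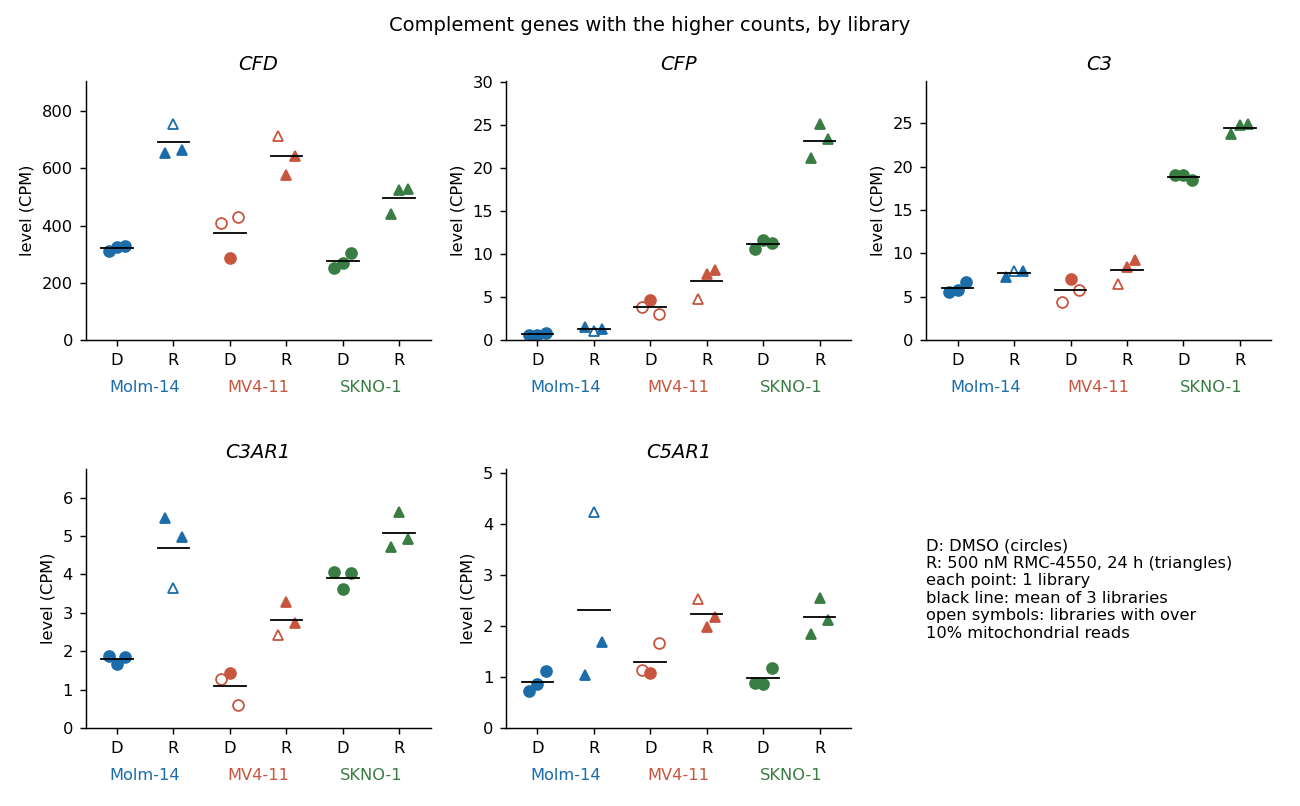
Level in CPM of CFD, CFP, C3, C3AR1 and C5AR1 in each of the 18 libraries, by line and treatment, with group means as black lines and the 4 libraries of high mitochondrial share as open symbols. The RMC-4550 libraries of CFD and CFP lie above the DMSO libraries in every line, and the Molm-14 mean of C5AR1 is drawn up by 1 library at 4.23 CPM.

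CFD rose by the most reads. With RMC-4550 the Molm-14 libraries had 653, 755 and 665 CPM, the MV4-11 libraries 715, 577 and 643 CPM and the SKNO-1 libraries 440, 524 and 527 CPM. Every treated library lay above every DMSO library of its line. Separation of this kind was not rare among all genes tested. Its downward form held for 33.0% of them (Molm-14), 13.5% (MV4-11) and 35.4% (SKNO-1). The upward share is not given here, so lack of overlap alone does not set CFD or the members below apart from other genes. The fold changes by limma were 2.14 in Molm-14 (log2 change 1.10, SE 0.14, adjusted p = 1.1e-05), 1.74 for MV4-11 (log2 change 0.80, adjusted p = 8.6e-04) and 1.80 for SKNO-1 (log2 change 0.85, adjusted p = 2.2e-04). Leaving out any single library kept the 3 calls, with log2 changes of 1.03 to 1.14, 0.61 to 0.91 and 0.79 to 0.94. Without the Molm-14 library of high mitochondrial share, the log2 change in Molm-14 was 1.03. Within the MV4-11 libraries of low mitochondrial share (2 treated, 1 DMSO) the log2 change was 1.09, and within those of high share (1 treated, 2 DMSO) 0.77. The call in MV4-11 was lost when that line was fitted alone (adjusted p = 0.0545).

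CFP had 1.48, 1.02 and 1.30 CPM with RMC-4550 in Molm-14, from 27, 16 and 23 reads, above its 10 to 15 reads with DMSO. The treated libraries had 4.81, 7.70 and 8.12 CPM in MV4-11 and 21.1, 25.1 and 23.4 CPM in SKNO-1. The groups did not overlap in any line, and the gap was narrowest in MV4-11, where the highest DMSO library had 4.65 CPM. The log2 changes were 0.89 in Molm-14 (SE 0.22, adjusted p = 0.0036), 0.82 for MV4-11 cells (adjusted p = 0.020) and 1.06 for SKNO-1 cells (adjusted p = 0.0018) by limma. The MV4-11 call was lost without DMSO replicate 3 (log2 change 0.65), without RMC-4550 replicate 2 (0.72) or 3 (0.68), and when that line was fitted alone (adjusted p = 0.16). Without the libraries of high mitochondrial share it was kept at 0.76 (adjusted p = 0.016). The Molm-14 call was lost with voom weights (adjusted p = 0.064), and without any treated Molm-14 library CFP no longer reached the level for testing.

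The change of C3 was smaller. The Molm-14 libraries had 7.21, 8.01 and 7.97 CPM with RMC-4550, the MV4-11 libraries 6.44, 8.45 and 9.19 CPM and the SKNO-1 libraries 23.7, 24.8 and 24.9 CPM. Treated libraries were above DMSO libraries without overlap in Molm-14 and SKNO-1, but not in MV4-11. The log2 change was 0.38 in Molm-14 (95% interval 0.05 to 0.71, adjusted p = 0.059), 0.49 for MV4-11 cells (0.16 to 0.82, adjusted p = 0.046) and 0.38 for SKNO-1 cells (0.05 to 0.71, adjusted p = 0.086), so that by limma only the MV4-11 value passed. That call was lost in 15 of the fits that left out 1 library (log2 change 0.31 without MV4-11 DMSO replicate 1). Without the libraries of high mitochondrial share the C3 values of Molm-14 (0.35, adjusted p = 0.0072) and SKNO-1 (0.38, adjusted p = 0.0023) passed and that of MV4-11 (0.33, adjusted p = 0.082) did not. The SKNO-1 value also passed when fitted alone (adjusted p = 6.0e-04), with voom weights (0.019), mitochondrial share as covariate (0.022) or other scaling (0.049). That of Molm-14 passed with the covariate (adjusted p = 0.010), other scaling (0.037) or a replicate block (0.037). The MV4-11 call was lost when that line was fitted alone (adjusted p = 0.31) and with no filter (0.10).

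C3AR1 reached 5.47, 3.65 and 4.98 CPM with RMC-4550 in Molm-14 and 2.43, 3.29 and 2.74 CPM in MV4-11. In SKNO-1, where it began higher, it had 4.72, 5.61 and 4.92 CPM. Treated and DMSO libraries did not overlap in any line. The fold change was 2.55 in Molm-14 (log2 change 1.35, SE 0.26, adjusted p = 5.0e-04) and 2.65 in MV4-11 (log2 change 1.41, adjusted p = 0.0014), and leaving out any single library kept both calls. Without the libraries of high mitochondrial share, Molm-14 gave a log2 change of 1.52 (adjusted p = 8.1e-07) and MV4-11 one of 1.05 (adjusted p = 0.0022). The MV4-11 value was not called when that line was fitted alone (adjusted p = 0.080). In SKNO-1 the log2 change was 0.37 (95% interval -0.17 to 0.92, adjusted p = 0.31) and was not called by limma. It passed at the same size without the libraries of high mitochondrial share (adjusted p = 0.042) and when SKNO-1 was fitted alone (adjusted p = 0.033).

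C5AR1 had 1.04, 4.23 and 1.70 CPM with RMC-4550 in Molm-14, from 19, 66 and 30 reads, 2.54, 1.97 and 2.18 CPM in MV4-11 and 1.85, 2.55 and 2.12 CPM in SKNO-1. Replicate 2 of Molm-14, the library with the largest mitochondrial share, stood far above the other treated libraries, and the lowest treated library of Molm-14 fell inside the DMSO range. The groups did not overlap in MV4-11 or SKNO-1. The log2 change in Molm-14 was 1.12 (SE 0.37, adjusted p = 0.022), and without replicate 2 it was 0.57 (adjusted p = 0.13). A fit with that library kept and the mitochondrial share as covariate gave 0.74, which was called (adjusted p = 0.032). The call was also lost without Molm-14 DMSO replicate 1 (0.97) or 2 (1.10), and when that line was fitted alone (adjusted p = 0.13). In SKNO-1 the log2 change was 1.14 (adjusted p = 0.032), a call lost without either of the first 2 DMSO libraries or without any of the 3 treated ones (log2 change 1.02 to 1.25). That call was also lost with no filter (adjusted p = 0.062). In MV4-11 the log2 change was 0.79 (95% interval 0.0034 to 1.58, adjusted p = 0.19) and was not called, but it passed without Molm-14 RMC-4550 replicate 2 in the shared fit (adjusted p = 0.040). The fit with mitochondrial share as covariate gave 1.19, which was called (adjusted p = 0.0026), and without the libraries of high share it was 0.93 and not called (adjusted p = 0.076).

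**Figure D3:**
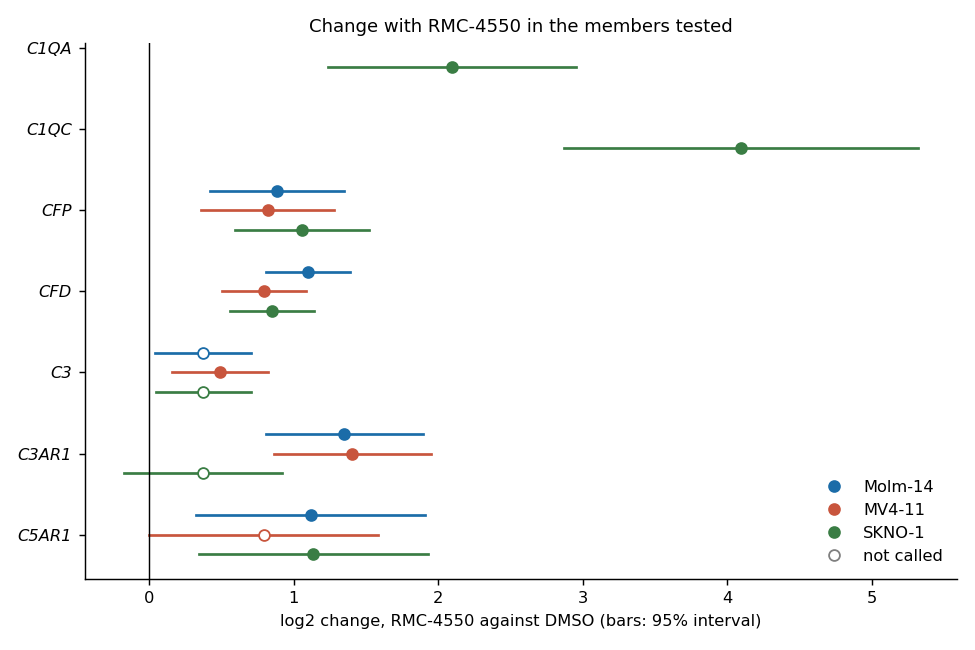
Log2 change with RMC-4550 against DMSO for each tested member, with its 95% interval by limma (n = 3 libraries per group); filled points were called at an adjusted p under 0.05 and open points were not. All points lie to the right of 0, and the points of C3 lie nearest to it in Molm-14 and MV4-11.

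The C1q genes were read in SKNO-1 and, at a few reads, in MV4-11. C1QA, the A chain, had 8, 20 and 21 reads with DMSO and 73, 75 and 53 with RMC-4550 in SKNO-1, or 0.369, 0.918 and 0.989 CPM against 3.38, 3.48 and 2.44 CPM. C1QC, the C chain, had 2, 0 and 2 reads against 22, 28 and 24. C1QB, the B chain, had 0, 3 and 0 reads against 2, 4 and 3. Treated libraries lay above the DMSO libraries without overlap for C1QA and C1QC, but not for C1QB. Scaled to depth, C1QA had 4.09 times the reads with RMC-4550 (95% interval 2.98 to 5.71), C1QC 18.4 times (6.91 to 69.4) and C1QB 2.99 times (0.746 to 17.2), intervals that cover counting error only. By limma, C1QA changed by 2.10 on the log2 scale (SE 0.40, adjusted p = 0.0011) and C1QC by 4.09 (SE 0.58, adjusted p = 6.6e-05). C1QC rests on 4 DMSO reads in all, so its fitted change depends on the 0.5 read added by the authors. Both calls held under every alternative run that tested them, and without any treated SKNO-1 library C1QC no longer reached the level for testing.

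In MV4-11 C1QA had 6, 3 and 4 reads with DMSO and 6, 8 and 11 with RMC-4550, a ratio of 1.81 with an interval of 0.890 to 3.85 that includes 1. In the libraries of low mitochondrial share it had 3 reads in the DMSO library and 8 and 11 in the treated ones. C1QC had 0 reads with DMSO and 1 in each treated library, and C1QB had 1 read in all, both at or under the floor of 3 reads per library. No read of a C1q gene was found in the 6 Molm-14 libraries, where 3 reads stand for 0.167 CPM in DMSO replicate 1. With DMSO, C1QA was at least 4.49-fold higher in SKNO-1 than in Molm-14, against the floor of 3 reads per library. The tissue macrophage markers summed to 3.18 to 4.33 CPM with DMSO and 3.63 to 4.27 CPM with RMC-4550 in SKNO-1. Of the 8 markers, 4 passed 3 reads in some DMSO library and 5 in some treated library. CD163, LYVE1 and CD5L had at most 3 reads in every SKNO-1 library, and TIMD4 passed 3 reads with RMC-4550 but not with DMSO. The part of these markers in the C1q result was not tested.

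CR1 was the member with fewer reads under RMC-4550. With RMC-4550 it had 0 reads in all 3 Molm-14 libraries, where DMSO libraries had 13 to 17. In MV4-11 the treated libraries had 0, 2 and 0 reads against 2, 8 and 7, of which the libraries of low mitochondrial share were the treated 2 and 0 and the DMSO 8, and in SKNO-1 6, 8 and 4 against 9, 14 and 9. Treated values in CPM lay below the DMSO values without overlap in each line, in MV4-11 through library size alone for the libraries of 2 reads. Of all genes tested, the same was so of 33.0% in Molm-14, 13.5% of those in MV4-11 and 35.4% of those in SKNO-1. In Molm-14, CR1 was at least 5.04-fold lower against the floor of 3 reads per library. Summed reads scaled to depth were 9.05-fold lower in MV4-11 (95% interval 2.15 to 80.8) and 1.78-fold lower in SKNO-1 (0.971 to 3.38), so that the SKNO-1 interval includes no change. CR1 passed the filter in no line, and a fit by limma without that filter gave an adjusted p of 2.2e-05 for the change in Molm-14, 0.020 for MV4-11 cells and 0.57 for SKNO-1 cells.

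**Figure D4:**
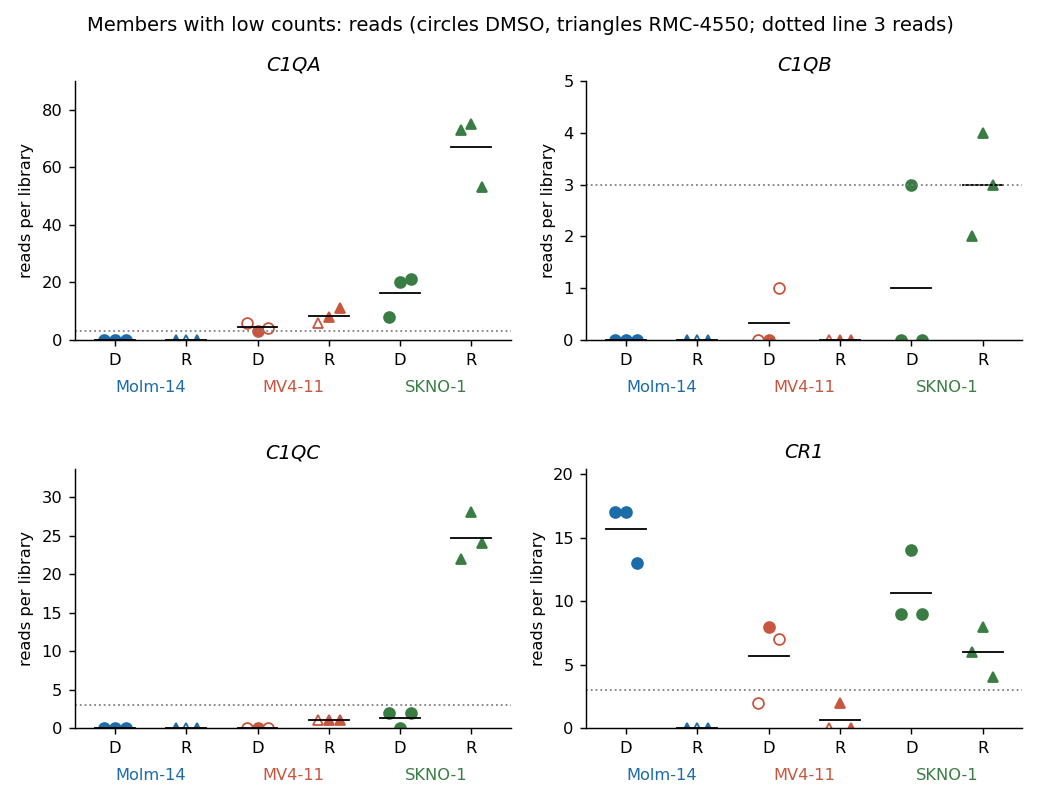
Reads per library of C1QA, C1QB, C1QC and CR1, by line and treatment, with group means as black lines and a dotted line at 3 reads. C1QA and C1QC are high only in the SKNO-1 libraries with RMC-4550, at 53 to 75 and 22 to 28 reads, and CR1 has 0 reads in the Molm-14 libraries with RMC-4550.

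The difference between lines in the change was tested for the 5 members measured in each pair of lines, and none was called by limma, where 19.4% of genes were called between MV4-11 and Molm-14, 10.9% between SKNO-1 and Molm-14 and 1.65% between SKNO-1 and MV4-11. At an unadjusted p under 0.05, 0 members passed in the first and 1, C3AR1, in each of the others. The share of all genes at that unadjusted threshold is not given here, so these counts are not read as a result about the members. The log2 change of C3AR1 in SKNO-1 differed by -0.98 from that in Molm-14 (95% interval -1.75 to -0.21, adjusted p = 0.10) and by -1.03 from that in MV4-11 (-1.80 to -0.26, adjusted p = 0.21). The difference from Molm-14 was called without the libraries of high mitochondrial share (-1.15, adjusted p = 9.9e-04), with that share as a covariate (-1.20, adjusted p = 0.0030), with voom weights (-0.99, adjusted p = 0.041), on log2 of CPM plus 1 (-0.70, adjusted p = 0.0498), in a fit of the 4 groups alone (-0.98, adjusted p = 0.019) and without MV4-11 DMSO replicate 3 (adjusted p = 0.019). The difference from MV4-11 was called without MV4-11 DMSO replicate 2 (-1.26, adjusted p = 0.047), which is the MV4-11 DMSO library of low mitochondrial share. Leaving out 1 library gave -1.26 to -0.65 for this difference, and without the libraries of high mitochondrial share it was -0.68. For CFD the log2 difference was -0.30 (95% interval -0.71 to 0.11) between MV4-11 and Molm-14, -0.25 (-0.66 to 0.16) between SKNO-1 and Molm-14 and 0.05 (-0.35 to 0.46) between SKNO-1 and MV4-11. The first of these was called without MV4-11 DMSO replicate 2 (-0.48, adjusted p = 0.019). Comparisons of this kind share the groups of the line they have in common.

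Of 41 other complement genes listed, 37 had a row. In Molm-14, 17 could be tested, of which 7 were called higher and 4 lower, where 21.5% of all genes were called higher and 25.1% lower. In MV4-11 it was 4 higher and 0 lower of 18, against 5.85% and 8.03% of all genes. In SKNO-1 it was 4 higher and 3 lower of 19, against 10.8% and 16.2%. The share called lower was thus close to that of all genes in Molm-14 and SKNO-1. The median log2 change of those tested was 0.33 in Molm-14 (-0.06 over all genes tested), 0.19 for MV4-11 cells (-0.01) and 0.47 for SKNO-1 cells (-0.05). These genes, too, could enter the test through the treated group alone, so their counts and medians describe the tested genes only. A further receptor of C5a, C5AR2, was called higher in all lines. Its mean level went from 3.38 to 10.7 CPM in Molm-14, where the log2 change was 1.63 (adjusted p = 1.3e-06 by limma). MV4-11 cells started at 2.98 and reached 4.87 CPM, a log2 change of 0.69 (adjusted p = 0.010). SKNO-1 cells started at 4.37 and reached 6.32 CPM, a log2 change of 0.52 (adjusted p = 0.028). The SKNO-1 call of C5AR2 was lost without any one of 5 SKNO-1 libraries, and the MV4-11 call without RMC-4550 replicate 2 or 3. LAIR1, an inhibitory receptor for collagen that also binds C1q, and SCARF1, a scavenger receptor that binds C1q, were also called higher in all lines. For LAIR1 the log2 change was 0.52 in Molm-14, 0.31 in MV4-11 cells and 0.64 in SKNO-1. For SCARF1 it was 1.61 in Molm-14, 0.52 in MV4-11 cells and 0.82 in SKNO-1. Their MV4-11 calls were lost without RMC-4550 replicate 1 (0.27 and 0.47), LAIR1 also without replicate 3, and SCARF1 also without RMC-4550 replicate 2 or DMSO replicate 2 or 3. With no filter these MV4-11 calls and the SKNO-1 call of C5AR2 were lost. Fitting MV4-11 alone lost its calls of LAIR1, SCARF1 and C5AR2.

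ITGAM, ITGAX and ITGB2 encode the chains of the integrin receptors of cleaved C3. ITGAM was called higher in MV4-11 (0.46) and SKNO-1 (0.78), ITGAX higher in Molm-14, from 53.8 to 113 CPM (1.03), and ITGB2, the shared beta chain, lower in SKNO-1, from 305 to 193 CPM (log2 change -0.65, adjusted p = 0.0039). C1QBP, a mainly mitochondrial protein that also binds C1q, was called lower in 2 lines, Molm-14 (-0.74) and SKNO-1 (-0.67). CD55, which speeds the decay of C3 convertases, was called lower in the same 2 lines, Molm-14 (-0.55, adjusted p = 7.5e-04) and SKNO-1 (-0.31, adjusted p = 0.044), and the SKNO-1 call was lost without any single SKNO-1 library. That SKNO-1 call was also lost with no filter (adjusted p = 0.11), other scaling, a replicate block or voom weights, and without single libraries of the other lines. CD46, a cofactor for cleavage of C3b, and CD93 were called lower in Molm-14 at -0.33 and -0.70, and both calls were lost without Molm-14 RMC-4550 replicate 2 (-0.20 and -0.48). The CD93 call was also lost without any one of 4 further Molm-14 libraries, and without single libraries of the other lines in the shared fit. It was lost as well with no filter (adjusted p = 0.079), other scaling, a replicate block or the mitochondrial share as covariate. The other called genes, C1R (1.04), C4A (1.19) and C8G (0.87), rose in Molm-14 and were under 5 CPM, and they are named after their values were seen. Without Molm-14 RMC-4550 replicate 2 or DMSO replicate 2 the calls of C1R and C8G were lost, at 0.63 and 0.53 in the former case. Fitting the compared line alone also lost the calls of C1R, C8G and CD46 in Molm-14 and that of ITGAM in MV4-11. C4A and C4B are near-identical, and how reads were shared between them is not given in the sources used here.

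**Figure D5:**
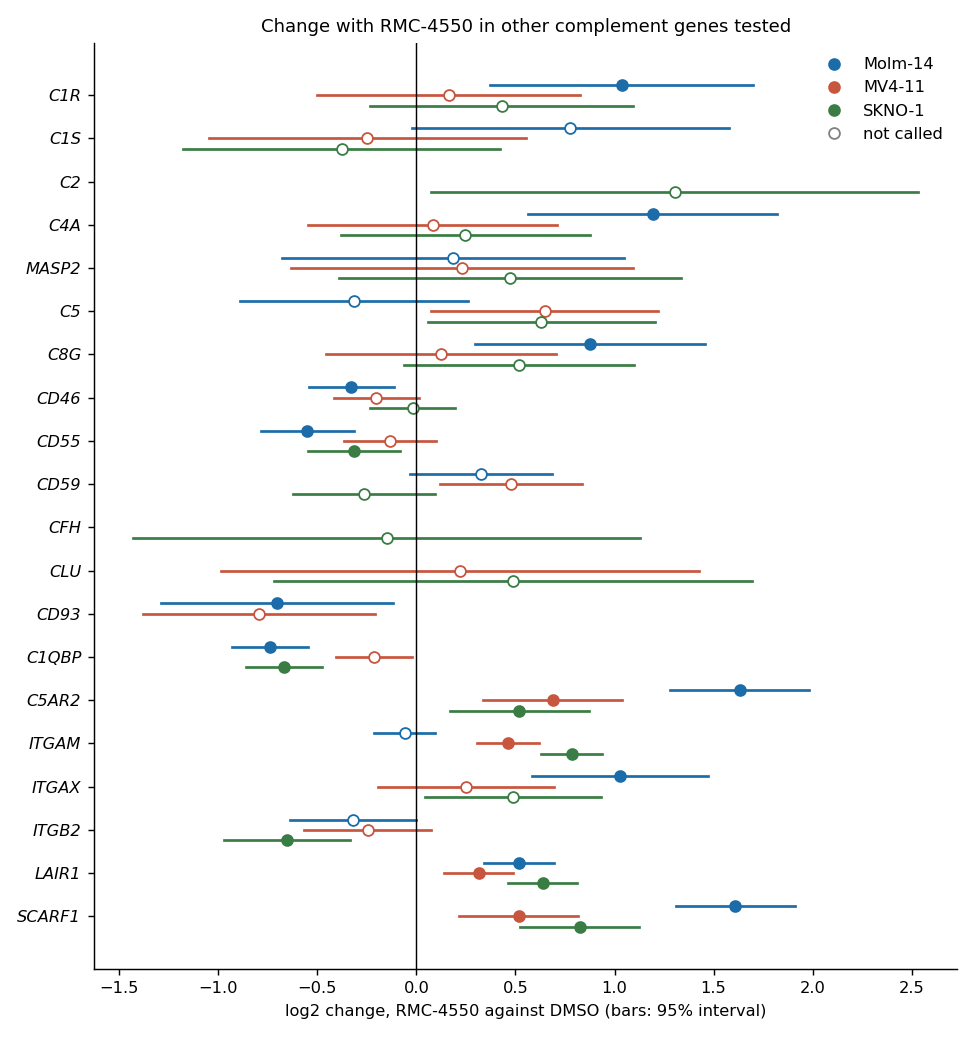
Log2 change with RMC-4550 against DMSO for the other complement genes tested in each line, with 95% intervals by limma (n = 3 libraries per group) and filled points for called genes. C5AR2, LAIR1 and SCARF1 have filled points above 0 in all 3 lines, and C1QBP and CD55 have filled points below 0 in Molm-14 and SKNO-1.

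For each member with at least 5 CPM in some group, the genes whose log2 levels followed it most closely over the 18 libraries were listed by Pearson's r as a description, since these libraries share lines and treatments. CFP was followed by DOK2 (r = 0.992) and ADGRG5 (r = 0.992), and CFD by SOCS1 (r = 0.970) and LINC02641 (r = 0.961). C3 was followed by FAM171A1 (r = 0.971) and ITGA6 (r = 0.966), and C3AR1 by TRANK1 (r = 0.913) and THEMIS2 (r = 0.905).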

How the data were processed

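Poly(A) RNA was sequenced, and per the submitters' processing notes FastQC, STAR and limma were used with GRCh38. The counter, annotation, filters and versions are not given in the sources used here. The authors deposited log2 values per gene. All values under 200 reads came back to within 0.02 of a whole read as log2 of reads plus 0.5 in CPM units of a scaled library size, which gave the reads and CPM shown here. Symbols were matched for 40069 of 40184 identifiers.

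The deposited log2 values were fitted in limma 3.58.1 (R 4.3.3) with an intensity trend, 1 coefficient for each of 6 groups and all 18 libraries. The fit took the 16289 genes that reached 1 CPM in 3 or more libraries, and genes were tested where 3 libraries of the groups compared reached it. P-values were two-sided and Benjamini-Hochberg adjusted over all genes tested in a comparison, and genes were called under 0.05. With 3 libraries against 3, an exact permutation test cannot go below 0.1 and was not used. Low counts were compared as sums with exact 95% intervals for counting error only. Levels between genes were divided by the longest GENCODE v29 transcript. The fit was checked on simulated data. The members, lists and comparisons were chosen with earlier results of these data known.

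The named genes are all members, other listed complement genes called in a line at a mean of at least 5 CPM, the 3 most abundant of that list (LAIR1, ITGB2 and ITGAX), and the 2 genes most correlated with each member of at least 5 CPM in some group. Alternatives were log2 of CPM plus 1, no filter, other scaling, a fit of the compared groups alone, a replicate block, the mitochondrial share as a covariate, voom weights and leaving out each library. Leaving out the 4 libraries above 10% mitochondrial reads was added after seeing the data. Marker lists for myeloid AML, T, B, tissue macrophage, erythroid and hepatocyte cells were summed. The erythroid list summed to 0.339 to 2.56 CPM, the T list to 0.848 to 14.0 CPM and the B list to 8.09 to 21.5 CPM over the 18 libraries.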

Additional observations from a re-analysis of the deposited data

Results flagged for a closer look

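Differences between lines in the change with RMC-4550 were called by limma for other complement genes but for none of the 5 members tested. C1QA, C1QB, C1QC and CR1 did not reach the level for these tests. Against the change in Molm-14, that of C5AR2 was lower by a log2 difference of -0.94 for MV4-11 cells (adjusted p = 0.012). For SKNO-1 cells it was lower by -1.11 (adjusted p = 0.0059). SCARF1 differed from Molm-14 by -1.09 for MV4-11 cells (adjusted p = 0.0021). The SKNO-1 cells differed by -0.79 (adjusted p = 0.018), which was not called without Molm-14 DMSO replicate 2 or SKNO-1 RMC-4550 replicate 1 or 3. ITGAM, which had a log2 change of -0.06 in Molm-14, differed by 0.52 for MV4-11 cells (adjusted p = 0.0036), and SKNO-1 cells differed by 0.84 (adjusted p = 8.4e-05). The log2 change of C1QBP in MV4-11 differed from that in Molm-14 by 0.52 (adjusted p = 0.012). When MV4-11 and Molm-14 were fitted without SKNO-1, the differences of C5AR2 (adjusted p = 0.051) and C1QBP (adjusted p = 0.056) were not called.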

How the results depend on the processing

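Replicate numbers were not used to pair the samples in the main fit. Same-numbered DMSO and RMC-4550 libraries of a line deviated together with r from -0.40 to 0.59. The highest values were 0.39 and 0.59, for replicates 1 and 2 of MV4-11, so pairing there is not excluded. With a replicate block, 36 of 37 member results kept direction and call, and C3 in Molm-14 became called at 0.38 (adjusted p = 0.037). Fitting the compared groups alone gave 668 genes for RMC-4550 in MV4-11 with 0 members, 8199 in SKNO-1, 1094 for the response of MV4-11 against Molm-14, 1 member for MV4-11 against Molm-14 with DMSO and 1 for the response of SKNO-1 against Molm-14. With the mitochondrial share as a covariate, RMC-4550 called 5054 genes in MV4-11 and 7272 in SKNO-1, and without the 4 libraries of high share 3892 and 7816. The responses of SKNO-1 against Molm-14 and MV4-11 then gave 3688 and 1289 genes with the covariate and 3826 and 823 without those libraries. In both settings 1 member was called for the response of SKNO-1 against Molm-14, as with log2 of CPM plus 1 and voom weights. With no filter 2 were called by limma, C1QC (4.04, adjusted p = 0.0085) and CR1 (4.15, adjusted p = 0.018). Both had 0 reads in the treated Molm-14 libraries. MV4-11 against Molm-14 with DMSO called 1 member with the covariate and 0 of 3 tested without those libraries.

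Leaving out each library gave 5371 to 7255 genes and 2 to 5 members called with RMC-4550 in Molm-14, 1177 to 3004 and 2 to 5 in MV4-11, and 2797 to 4887 and 3 to 6 in SKNO-1. With DMSO it gave 0 to 2 members for MV4-11 against Molm-14 and 4008 to 7636 genes for SKNO-1 against MV4-11. Each response difference gave 0 to 1 members, with 1395 to 5874 genes for MV4-11 against Molm-14, 920 to 1903 for SKNO-1 against Molm-14 and 155 to 870 for SKNO-1 against MV4-11.

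Uncalled values that changed sign are these. For MV4-11 against Molm-14 with DMSO, CFD was -0.028 with the covariate and -0.17 without the high-share libraries, C3 was 0.054 and 0.24 and, leaving out 1 library, -0.23 to 0.10 (0.0021 without Molm-14 DMSO replicate 3), and C5AR1 was -0.14 with the covariate. C5AR1 in SKNO-1 against MV4-11 was 0.31 with the covariate. The response difference of MV4-11 from Molm-14 was 0.053 for CFD without the high-share libraries, and for C3AR1 -0.14 on log2 of CPM plus 1, -0.45 with the covariate, -0.47 without those libraries and -0.33 to 0.28 leaving out 1. That of SKNO-1 from MV4-11 for CFD was -0.10, -0.23 and -0.054 to 0.24 in the last 3. The cause of these shifts was not tested. Depth limited members near 1 CPM, and the filter left no value for CFP (differences of MV4-11 or SKNO-1 from Molm-14 with DMSO) without 1 DMSO library of the higher line. Without the high-share libraries it left none for CFP in Molm-14 and MV4-11 against Molm-14, or for C5AR1 between MV4-11 and either other line with DMSO.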
